A study of Homo sapiens with 9 samples.

Results

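Fibrinogen, the contact factors and plasminogen are made by the liver and released into plasma. The genes described here are FGA, FGB and FGG (the chains of fibrinogen), F5 and F13B (a cofactor and a carrier subunit of the later clotting steps), F11, F12, KLKB1 and KNG1 (the contact system), and PLG (plasminogen). They were chosen by name, with earlier results of these data known. Every probe set whose array annotation gives exactly 1 symbol from among these was taken. This gave 15 of 22215 probe sets, for 10 of 11963 genes. FGA, FGB, F5, F12 and KNG1 had 2 probe sets each and the other 5 genes had 1. Another probe set, which the annotation gives to both PLG and its relative LPA, was left out by this rule.

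The measurements come from HepG2, an established human hepatoma line that secretes many plasma proteins. Cells were kept in medium with serum stripped of thyroid hormone and were given 10 nM GC-1, 10 nM T3 or vehicle for 24 h, with 3 arrays in each group. T3 (triiodothyronine) is the active thyroid hormone. GC-1 (sobetirome) is a synthetic agonist that prefers the beta form of the hormone receptor; it carries methyl and isopropyl groups where T3 has iodines, a methylene bridge for the ether oxygen, and an oxyacetic acid for the amino acid side chain. The labels do not say that the 3 arrays of a group came from separate cultures, and p-values therefore describe the spread among these arrays, which may be technical. HepG2 is a tumour line, and the labels name no other cells in the cultures.

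As background, fibrinogen is a secreted hexamer with a pair each of alpha, beta and gamma chains. Thrombin removes short peptides from the alpha and beta chains, the resulting fibrin polymerises, and factor XIII cross-links it. Factor XII, plasma prekallikrein (KLKB1), factor XI and high molecular weight kininogen (KNG1) form the contact system, which can start clotting on charged surfaces and releases bradykinin. Plasmin, made from plasminogen, dissolves fibrin. In hepatocytes the fibrinogen genes are a textbook example of acute phase genes, which interleukin-6 raises together, and factors of the C/EBP family act on their promoters. The thyroid hormone receptors are nuclear receptors that bind hormone response elements in DNA.

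The values are log2 signals of probe sets, as deposited, and a difference of 1 is a factor of 2 in signal. Each probe set binds its target with its own strength, so where a set is called bright or dim below, this is its place on the array and not a transcript level set against another gene's. Array medians lay between 7.02 and 7.06 log2 units. T3 arrays 1 and 2 had wider value distributions (interquartile ranges 2.99 and 2.97 log2 units) than the other arrays (2.83 to 2.88), and stood apart from T3 array 3 on the second principal component (-14.6 and -11.8, against 6.59). T3 array 3 in turn had the lowest limma array weight (0.30, against 0.78 to 1.71 for the other arrays). On the first component T3 array 3 stood at 14.1, against 6.41 and 3.13 for T3 arrays 1 and 2. All 7 hepatocyte markers lay above the median probe set. Their summed signal was 16.79 to 16.83 log2 units on GC-1 arrays, 16.79 to 16.84 on T3 arrays and 16.73 to 16.76 on vehicle arrays, and APOB alone of the 7 passed the test, with T3 (log2 0.21 ± 0.05 SE, adjusted p = 0.0419, limma). Its part in the results below was not tested. Among 4 platelet and megakaryocyte markers, 2 leukocyte markers and 6 endothelial and stromal markers, 0 changed with either ligand, and 1, 1 and 2 of them lay above the median probe set. The summed signal of the 2 leukocyte markers was 7.46 to 7.56 log2 units on GC-1 arrays, 7.33 to 7.47 on T3 arrays and 7.30 to 7.40 on vehicle arrays. Of 6 genes taken as a check on the hormone response, KLF9, G6PC1, CPT1A and DIO1 rose with both ligands. The other 2, the hormone receptor genes THRA and THRB, did not pass with either. In such bulk RNA, a change in the number of cells that make a transcript and a change in the amount per cell cannot be told apart.

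Differences were tested with limma over all 22215 probe sets, with p-values adjusted over all of them, and a probe set was taken as changed where its adjusted p was under 0.05. T3 raised 9 of the 15 probe sets and lowered 0, and these 9 represent 7 of the 10 genes. Over all probe sets T3 raised 4%. It lowered 1.5% of all. GC-1 raised 6 of the 15, for 4 genes, and lowered 0, where it raised 1.81% and lowered 0.986% of all probe sets. All 3 T3 arrays lay above all 3 vehicle arrays in 10 of 15 probe sets, against 12.5% of all probe sets. All 3 GC-1 arrays lay above the vehicle arrays in 11 of 15, against 10.8%, and below them in 1, the dimmer F5 set, against 15.6%. The median log2 difference of the 15 was 0.27 with T3, where the median of all probe sets was -0.015, and 0.19 with GC-1, where it was -0.0043. Both comparisons use the same vehicle arrays. Because the genes were chosen with earlier results of these data known, the counts describe these genes and are no independent evidence. Their distance from the shares over all probe sets was not tested.

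**Figure D1:**
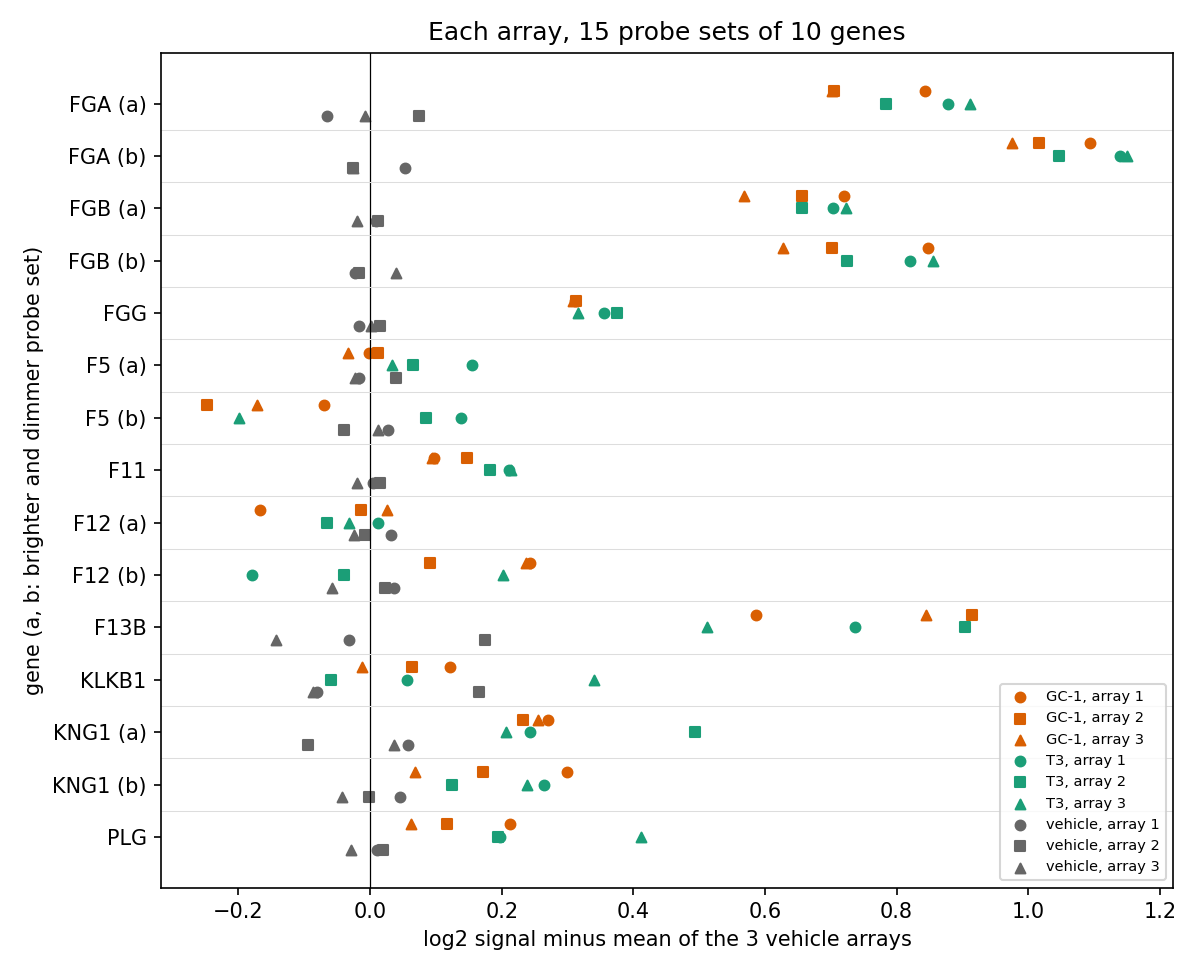
Log2 signal of each array minus the mean of the 3 vehicle arrays (x axis, log2 units), for the 15 probe sets (rows); the letters a and b mark the brighter and the dimmer probe set of a gene, colours the group and marker shapes the array. In FGA, FGB, FGG, F13B, F11, KNG1 and PLG the 6 ligand arrays lie to the right of all vehicle arrays. In F12 (a), F5 (a) and KLKB1 each ligand group overlaps the vehicle arrays.

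All 3 fibrinogen chains rose with both ligands. FGA, which encodes the alpha chain, rose 1.68-fold with GC-1 and 1.81-fold with T3 on its brighter probe set, and 2.04-fold and 2.16-fold on the dimmer one. FGB, the beta chain, rose 1.57-fold with GC-1 and 1.62-fold with T3 on its brighter probe set. FGG, the gamma chain, rose 1.24-fold with GC-1 and 1.27-fold with T3. All 5 probe sets of the 3 genes passed the test with both ligands.

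The promoter windows of the chains are shown because the 3 genes rose together and because their known regulators have short, recognisable sites. Each window runs from 250 bases before to 50 after the start site, in RefSeq on GRCh38.p14, and is written 5′ to 3′ on the gene's strand. Windows were found for all 10 genes, and for FGB and PLG, which have 2, the one at the outermost start was used. The FGA window is chr4:154590693-154590992 (minus strand), that of FGB chr4:154562730-154563029 (plus strand), and that of FGG chr4:154612607-154612906 (minus strand). Capitals mark matches on either strand to a C/EBP core (TTGCNNAA), an IL-6 response core (CTGGGA) or a thyroid receptor core (AGGTCA).
FGA: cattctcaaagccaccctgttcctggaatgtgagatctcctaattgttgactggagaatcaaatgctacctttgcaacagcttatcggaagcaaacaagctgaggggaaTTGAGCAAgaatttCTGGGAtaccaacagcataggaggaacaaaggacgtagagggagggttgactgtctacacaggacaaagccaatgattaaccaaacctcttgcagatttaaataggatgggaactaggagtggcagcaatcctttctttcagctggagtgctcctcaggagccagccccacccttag
FGB: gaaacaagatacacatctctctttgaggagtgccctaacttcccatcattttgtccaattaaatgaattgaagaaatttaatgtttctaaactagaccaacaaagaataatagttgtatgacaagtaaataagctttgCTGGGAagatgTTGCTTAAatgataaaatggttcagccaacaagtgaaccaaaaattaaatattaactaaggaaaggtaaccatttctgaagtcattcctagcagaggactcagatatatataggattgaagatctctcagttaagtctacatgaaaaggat
FGG: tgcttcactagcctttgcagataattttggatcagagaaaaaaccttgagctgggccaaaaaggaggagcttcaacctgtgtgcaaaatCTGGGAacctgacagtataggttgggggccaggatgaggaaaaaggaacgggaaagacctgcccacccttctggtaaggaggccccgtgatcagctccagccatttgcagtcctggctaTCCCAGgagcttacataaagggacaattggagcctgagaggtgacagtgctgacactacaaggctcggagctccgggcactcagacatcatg

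Counting from the start site, the FGA window holds a C/EBP core at -141 to -134 and an IL-6 response core at -127 to -122. The FGB window has the same motifs in the other order, with the IL-6 response core at -112 to -107 and the C/EBP core at -101 to -94. The FGG window has IL-6 response cores at -161 to -156 and -42 to -37 and no match to the others. None of these matches overlap each other.

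Among the 10 genes, 4 windows hold a C/EBP core (FGA, FGB, KLKB1 and KNG1), against 10.5% of 35097 promoter windows of this length, and 5 hold an IL-6 response core (FGA, FGB, FGG, F5 and PLG), against 33.3%. A thyroid receptor core is in 1 (KNG1, at -228 to -223), against 13.8%. A direct repeat of that core with a spacer of 4 bases of any kind, the classical thyroid hormone response element, is in 0, against 0.0199%. KLKB1, whose window holds a C/EBP core, is among the genes that did not pass the test below. A match describes letters and shows no binding, and sites outside these windows were not searched.

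The brighter FGA probe set read 13.30, 13.17 and 13.16 log2 units on the GC-1 arrays, 13.34, 13.24 and 13.37 on the T3 arrays, and 12.40, 12.53 and 12.45 on the vehicle arrays. All 6 ligand arrays lay above all vehicle arrays, and GC-1 and T3 arrays overlapped. The difference from vehicle was 0.75 ± 0.06 with GC-1 (SE, n = 3 per group, adjusted p = 6.15e-05, limma) and 0.86 ± 0.06 with T3 (adjusted p = 1.41e-05).

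The dimmer FGA probe set read 11.37, 11.29 and 11.25 on GC-1 arrays, 11.41, 11.32 and 11.42 on T3 arrays, and 10.33, 10.25 and 10.25 on vehicle arrays. Here the distance between ligand and vehicle arrays was wider still. The log2 difference was 1.03 ± 0.05 with GC-1 (adjusted p = 2.14e-06) and 1.11 ± 0.05 with T3 (adjusted p = 8.26e-07), and it ranked 21 of 22215 probe sets by size of increase with each ligand. FGA is known to give a common transcript and a longer one that encodes an extended alpha chain, and the annotation ties its probe sets to different RefSeq transcripts. No probe sequences were used, so which transcript each set binds was not examined.

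FGB read 12.33, 12.27 and 12.18 on GC-1 arrays, 12.32, 12.27 and 12.34 on T3 arrays, and 11.62, 11.62 and 11.59 on vehicle arrays, on its brighter probe set. The vehicle arrays stood within a few hundredths of each other, and every ligand array lay well above them. The difference was 0.65 ± 0.05 with GC-1 (adjusted p = 5.62e-05, limma) and 0.69 ± 0.05 with T3 (adjusted p = 2.13e-05). The dimmer FGB probe set read 11.74, 11.59 and 11.52 on GC-1 arrays, 11.71, 11.61 and 11.75 on T3 arrays, and 10.87, 10.87 and 10.93 on vehicle arrays. It gave the same picture, with 0.73 ± 0.06 for GC-1 (adjusted p = 9.89e-05) and 0.80 ± 0.06 for T3 (adjusted p = 2.87e-05). In FGA and FGB alike, the dimmer probe set had the larger log2 difference with both ligands, a contrast between probe sets that was not tested.

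FGG had the smallest change of the 3 chains. It read 13.809, 13.810 and 13.806 on GC-1 arrays, 13.853, 13.873 and 13.814 on T3 arrays, and 13.481, 13.513 and 13.498 on vehicle arrays. The groups were narrow and separate: all GC-1 arrays lay above vehicle and below T3. The difference was 0.31 ± 0.04 with GC-1 (adjusted p = 0.00322, limma) and 0.35 ± 0.04 with T3 (adjusted p = 0.000918). The mean signal of FGG exceeded that of 99.6% of probe sets. Of the 87 brighter probe sets, 0 passed the test with T3, and their differences ran between -0.13 and 0.19. With GC-1 the 87 ran between -0.11 and 0.15, also with 0 past the threshold. Whether signals this bright are held back by the array's upper range was not tested.

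**Figure D2:**
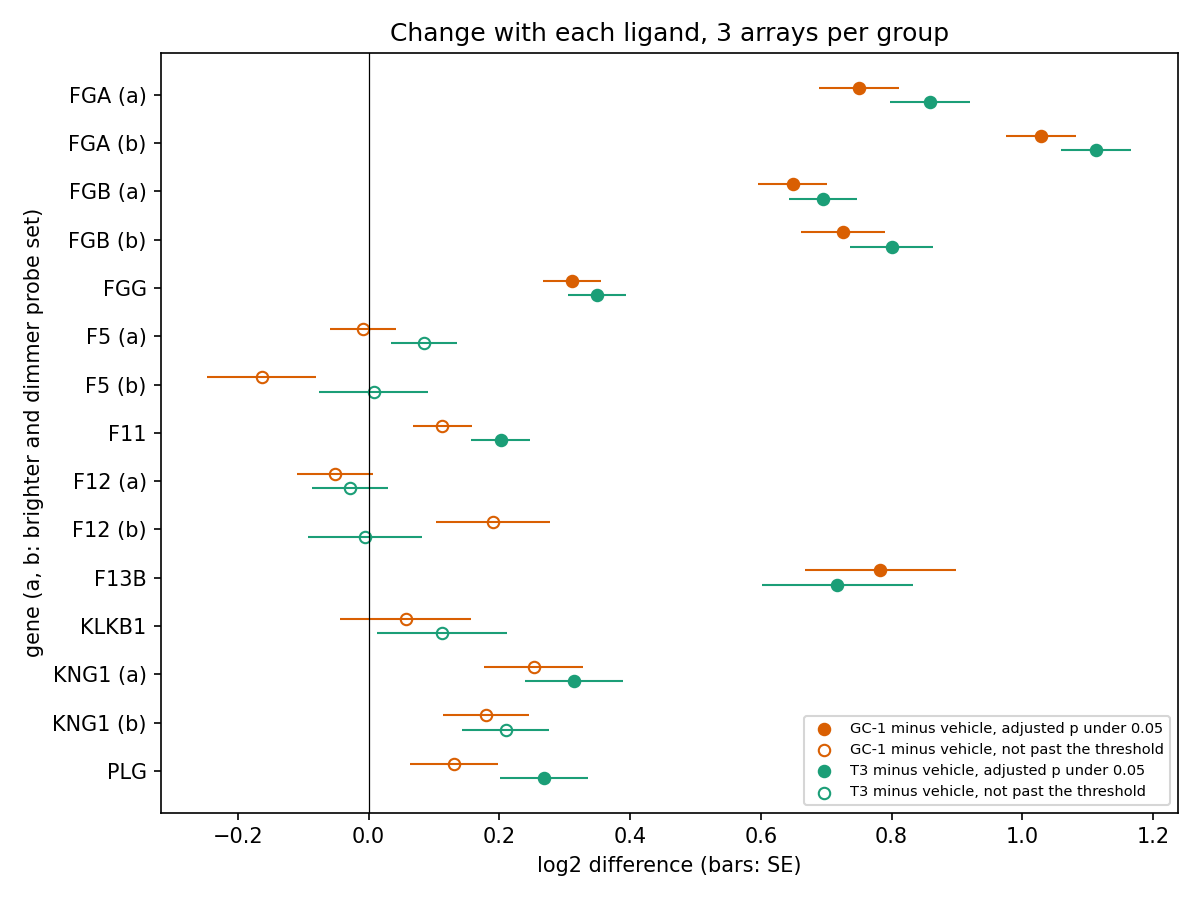
Log2 difference from vehicle with GC-1 (orange) and T3 (green) for the 15 probe sets (rows), with standard errors; filled points passed an adjusted p under 0.05 and open points did not. FGA, FGB, FGG and F13B are filled for both ligands, F11, KNG1 (a) and PLG for T3, and both probe sets of F5 and F12 are open.

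F13B encodes the carrier subunit that binds and protects the catalytic subunit of factor XIII in plasma. Its probe set was dim, below the median of every array, and read 5.32, 5.65 and 5.58 on GC-1 arrays, 5.47, 5.64 and 5.25 on T3 arrays, and 4.70, 4.91 and 4.59 on vehicle arrays. The arrays of each group scattered more than in the fibrinogen genes, but the lowest ligand array lay above the highest vehicle array. F13B rose 1.72-fold with GC-1 (log2 0.78 ± 0.12, adjusted p = 0.00386, limma) and 1.64-fold with T3 (0.72 ± 0.12, adjusted p = 0.00396). With the interquartile range of the array as a covariate the T3 difference was 0.46 (adjusted p = 0.0610), and without T3 arrays 1 and 2 it was 0.51 (adjusted p = 0.0630), while the GC-1 call held in these fits. F13A1, which encodes the catalytic subunit, had differences of -0.04 with GC-1 (adjusted p = 0.897) and -0.17 with T3 (adjusted p = 0.294).

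F5 encodes factor V, the cofactor that speeds the making of thrombin. Its brighter probe set read 10.52, 10.53 and 10.49 on GC-1 arrays, 10.68, 10.59 and 10.56 on T3 arrays, and 10.51, 10.56 and 10.50 on vehicle arrays. The groups overlapped with vehicle, with differences of -0.0080 for GC-1 (adjusted p = 0.965, limma) and 0.08 for T3 (adjusted p = 0.374). The dimmer probe set read 9.58, 9.40 and 9.48 on GC-1 arrays, 9.79, 9.74 and 9.45 on T3 arrays, and 9.68, 9.61 and 9.66 on vehicle arrays. All GC-1 arrays lay below vehicle, yet the difference of -0.16 did not pass (adjusted p = 0.377). T3 arrays 1 and 2, the arrays with the wider distributions, lay above vehicle and T3 array 3 below it, so the T3 mean difference of 0.01 (adjusted p = 0.971) averages opposite values. The part of that array difference in the result was not tested.

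In the contact system, KNG1 and F11 rose with T3, while F12 and KLKB1 did not pass with either ligand. KNG1 encodes the kininogens, from which bradykinin is cut. Both KNG1 probe sets were dim, with mean signals above those of 27.7% and 18.1% of all probe sets. Its brighter probe set read 6.035, 5.997 and 6.020 on GC-1 arrays, 6.008, 6.258 and 5.971 on T3 arrays, and 5.822, 5.671 and 5.802 on vehicle arrays. Every ligand array lay above every vehicle array, and T3 array 2 was the highest. The difference was 0.25 ± 0.08 with GC-1 (adjusted p = 0.118, limma) and 0.31 ± 0.08 with T3 (adjusted p = 0.0353). The dimmer probe set read 5.676, 5.548 and 5.445 on GC-1 arrays, 5.642, 5.502 and 5.616 on T3 arrays, and 5.422, 5.375 and 5.334 on vehicle arrays. Again no ligand array fell among the vehicle arrays, and neither difference passed, at 0.18 with GC-1 (adjusted p = 0.207) and 0.21 with T3 (adjusted p = 0.0983). The T3 call on the brighter probe set is near the threshold: it was kept without T3 array 3 (adjusted p = 0.0231) and lost when any other array was left out (adjusted p = 0.0512 to 0.122). Of the 7 other fits that tested this set the T3 call held in 3, and it was lost with the interquartile range as a covariate. Without T3 array 2, the GC-1 difference of 0.25 passed (adjusted p = 0.0406).

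F11 encodes factor XI, which links the contact system to the factors that make thrombin. It read 8.63, 8.68 and 8.62 on GC-1 arrays, 8.74, 8.71 and 8.74 on T3 arrays, and 8.53, 8.55 and 8.51 on vehicle arrays. The 3 groups did not overlap, with GC-1 between T3 and vehicle. The T3 difference of 0.20 ± 0.05 (1.15-fold) passed (adjusted p = 0.0254, limma) and the GC-1 difference of 0.11 ± 0.05 did not (adjusted p = 0.251). The T3 call was lost without vehicle array 1 (adjusted p = 0.0835), 2 (0.0676) or 3 (0.103) or T3 array 1 (adjusted p = 0.0768). Of the 8 other fits described at the end it held in 4, and it was lost with the interquartile range as a covariate.

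KLKB1, the gene of plasma prekallikrein, is the close relative and chromosome neighbour of F11. Its probe set was dim, with a mean signal above that of 27.6% of all probe sets. It read 6.01, 5.95 and 5.88 on GC-1 arrays, 5.95, 5.83 and 6.23 on T3 arrays, and 5.81, 6.06 and 5.81 on vehicle arrays. The groups overlapped throughout, with vehicle array 2 above all GC-1 arrays. The differences were 0.06 ± 0.10 with GC-1 (adjusted p = 0.849, limma) and 0.11 ± 0.10 with T3 (adjusted p = 0.572).

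F12 encodes factor XII, the protease that starts contact activation. Its brighter probe set read 7.79, 7.94 and 7.98 on GC-1 arrays, 7.97, 7.89 and 7.92 on T3 arrays, and 7.99, 7.95 and 7.93 on vehicle arrays. The groups overlapped, with differences of -0.05 for GC-1 (adjusted p = 0.740, limma) and -0.03 for T3 (adjusted p = 0.825); the 95% intervals ran between -0.18 and 0.08 and between -0.16 and 0.10. The dimmer probe set read 6.63, 6.48 and 6.63 on GC-1 arrays, 6.21, 6.35 and 6.59 on T3 arrays, and 6.43, 6.41 and 6.33 on vehicle arrays. Here GC-1 arrays all lay above vehicle, by 0.19 (adjusted p = 0.317), while T3 arrays 1 and 2 and T3 array 3 again fell apart (difference -0.0057, adjusted p = 0.980).

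PLG encodes plasminogen. It read 9.51, 9.41 and 9.36 on GC-1 arrays, 9.50, 9.49 and 9.71 on T3 arrays, and 9.31, 9.32 and 9.27 on vehicle arrays. All ligand arrays lay above vehicle, and T3 array 3 was the highest. PLG rose 1.20-fold with T3 (log2 0.27 ± 0.07, adjusted p = 0.0428, limma), and the GC-1 difference was 0.13 ± 0.07 (adjusted p = 0.382). The T3 call was kept without T3 array 2 (adjusted p = 0.0427) or GC-1 array 1 (adjusted p = 0.0467). It was lost without any other array (adjusted p = 0.0560 to 0.138) and after quantile normalization (adjusted p = 0.0846). The probe set shared with LPA had differences of 0.15 with GC-1 (adjusted p = 0.327) and 0.26 with T3 (adjusted p = 0.0632), and LPA's own probe set had 0.05 and -0.01 (adjusted p = 0.749 and 0.972).

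The ligands were then compared directly at the matched dose and time, as 1 pair of compounds with p-values adjusted over all probe sets. None of the 15 probe sets differed between GC-1 and T3 at an adjusted p under 0.05 in limma, where 0% of all probe sets did, and 1 of 15 had an unadjusted p under 0.05, against 14.1% of all. That 1 was the dimmer F12 probe set, at 0.20 (95% interval 0.0049 to 0.39, adjusted p = 0.345), which differs between the T3 arrays as described. The GC-1 minus T3 difference was -0.11 in FGA (interval -0.24 to 0.03) on the brighter probe set and -0.08 (-0.20 to 0.04) on the dimmer one. It was -0.05 in FGB (-0.16 to 0.07) on the brighter probe set and -0.04 in FGG (-0.14 to 0.06). In F13B it was 0.07 (-0.19 to 0.32), in F11 -0.09 (-0.19 to 0.0097) and in PLG -0.14 (-0.29 to 0.01).

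The sign was negative in 13 of 15 probe sets, where 52.0% of all probe sets were negative. All 3 GC-1 arrays lay below all 3 T3 arrays in 3 of 15, those of FGG, F11 and the brighter F5 set, against 10.1% of all probe sets, and above them in 0, against 7.9%. The 95% intervals of all 15 in this fit, each taken singly, stayed within 1.31-fold in either direction. A difference of 1.5-fold between the ligands therefore lay outside every interval of this fit. Smaller ones, of the size seen in PLG or F11, did not. Over the alternative fits described at the end, the difference reached 0.42 in F13B, -0.36 in PLG and -0.35 in KLKB1. The intervals given here do not cover those fits.

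**Figure D3:**
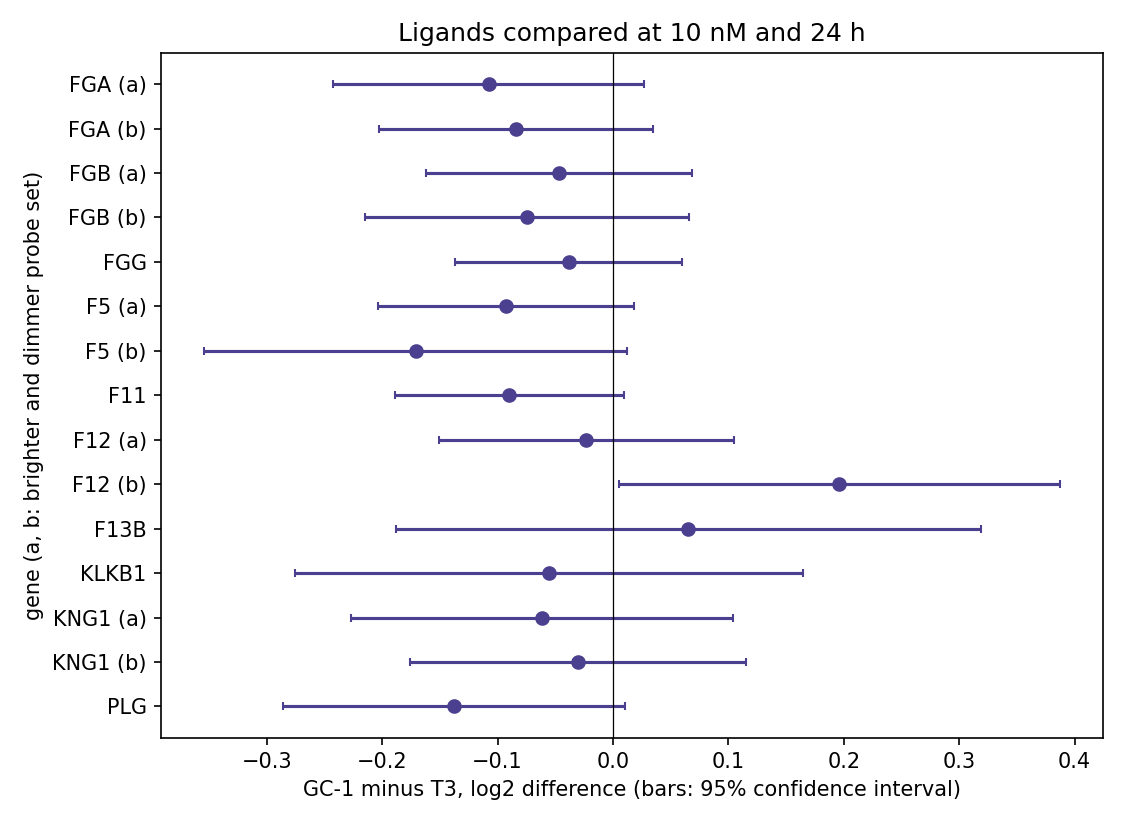
GC-1 minus T3 log2 difference (x axis) with its 95% confidence interval for the 15 probe sets (rows), at 10 nM and 24 h. The interval of the dimmer F12 set alone leaves out 0, and 13 of 15 differences are below 0.

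The fibrinogen genes lie side by side on chromosome 4 in the order FGB, FGA, FGG, and their measured neighbours were looked at next. On the FGB side these are DCHS2, TLR2 and TMEM131L, and on the FGG side LRAT, NPY2R and MAP9. None of the 6 passed with either ligand. Their differences ran between -0.14 (TMEM131L) and 0.02 (NPY2R) with GC-1 and between -0.21 (LRAT, adjusted p = 0.0770, limma) and 0.06 (TLR2) with T3. KLKB1 and F11 also stand next to each other, and none of SORBS2, TLR3, FAM149A, MTNR1A and FAT1 around them passed with either ligand.

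Over all 10 genes, 39 measured genes that are not members themselves were among the 3 nearest on either side within 1000 kb. With each ligand 1 of the 39 rose and 1 fell, where 4.51% of all genes rose and 1.71% fell with T3 and 2.1% and 1.16% with GC-1. The gene that rose was ST6GAL1 near KNG1, a sialyltransferase of secreted proteins (0.21 with GC-1, adjusted p = 0.0442; 0.32 with T3, adjusted p = 0.00246). The gene that fell was DBN1 near F12, an actin-binding protein (-0.21 with GC-1, adjusted p = 0.0424; -0.34 with T3, adjusted p = 0.00148).

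**Figure D4:**
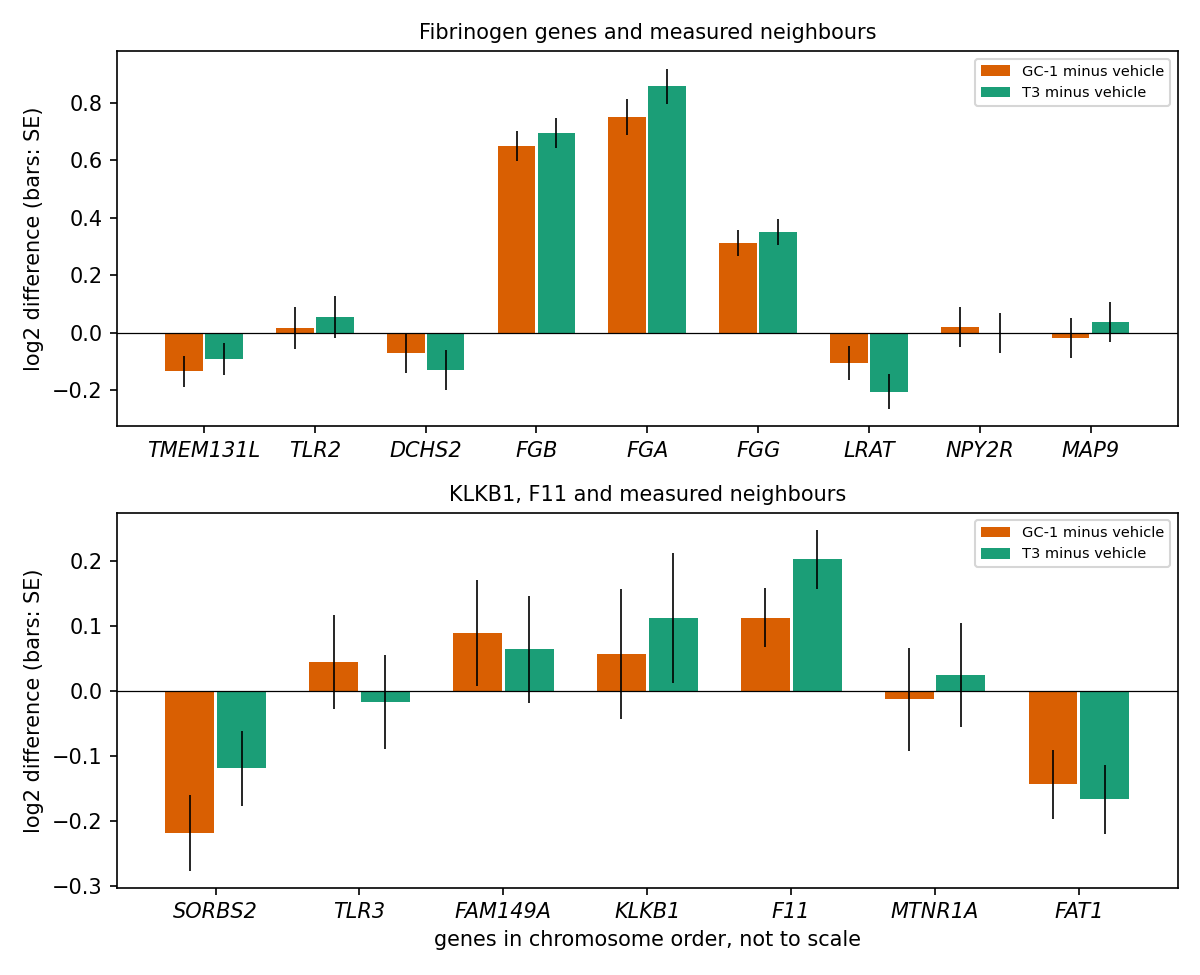
Log2 difference from vehicle with GC-1 (orange) and T3 (green), with standard errors, for the fibrinogen genes (top) and for KLKB1 and F11 (bottom) among their measured neighbours, in chromosome order and not to scale; 1 probe set per gene. In the top panel FGB, FGA and FGG stand at 0.31 to 0.86, and the 6 neighbours lie between -0.21 and 0.06.

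The partners of these proteins were taken from lists drawn up with earlier results of these data known, with 1 probe set per gene. Of all genes, taken the same way, 4.51% rose and 1.71% fell with T3, and 2.1% rose and 1.16% fell with GC-1. These shares are the background for the count of every list below, and no list was tested against them. Among 10 measured regulators of fibrinogen transcription, 3 rose and 0 fell with each ligand (median 0.10 with GC-1 and 0.14 with T3). These were CEBPB (0.72 with GC-1, adjusted p = 1.02e-05; 0.81 with T3, adjusted p = 2.43e-06, limma), CEBPA (0.36 and 0.48) and the interleukin-6 receptor gene IL6R (0.52, adjusted p = 0.0132, and 0.69, adjusted p = 0.00144). STAT3, which carries the interleukin-6 signal to the nucleus, had 0.12 with GC-1 (adjusted p = 0.379) and 0.23 with T3 (adjusted p = 0.0549).

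Of 7 vitamin K dependent proteins, 1 rose with GC-1, F7 (0.28, adjusted p = 0.0259), and 3 with T3, F7 (0.50), F10 (0.42) and PROC (0.22). F2, prothrombin, had 0.16 with GC-1 (adjusted p = 0.198) and 0.22 with T3 (adjusted p = 0.0549). Of 8 coagulation inhibitors, 2 rose with GC-1, SERPIND1 (0.56) and SERPINC1 (0.41), and 3 with T3, SERPIND1 (0.65), SERPINC1 (0.54) and SERPING1 (0.40). SERPING1 encodes the C1 inhibitor, the main brake on factor XIIa and kallikrein, and its GC-1 difference was 0.18 (adjusted p = 0.296). Of 8 other procoagulant factors and genes of their processing, 0 rose with GC-1 and 1 with T3, VKORC1 (0.34, adjusted p = 0.0109), which recycles vitamin K. No gene of these 3 lists fell.

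Of 11 measured genes of plasminogen activation and its control, 0 passed with GC-1 and 1 with T3. That gene was SERPINF2, which encodes the fast plasmin inhibitor alpha-2-antiplasmin (0.325 with GC-1, adjusted p = 0.0601; 0.473 with T3, adjusted p = 0.0055). The list had a median of 0.02 with GC-1 and -0.0023 with T3. PLGRKT, a cell surface receptor of plasminogen, had -0.13 with GC-1 (adjusted p = 0.304) and -0.17 with T3 (adjusted p = 0.131). ENO1, a glycolytic enzyme that also binds plasminogen at the cell surface, had 0.09 (adjusted p = 0.422) and 0.13 (adjusted p = 0.191). CPB2, a carboxypeptidase that slows fibrin breakdown, had -0.05 (adjusted p = 0.679) and -0.10 (adjusted p = 0.238). Of 7 kinin receptors and contact partners 0 passed with GC-1 and 1, CPN2, a subunit of the kinin-cleaving carboxypeptidase N, with T3 (0.30, adjusted p = 0.0185).

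Of 9 measured relatives by sequence family, 3 rose with GC-1 and 4 with T3, and 0 fell. HGFAC, a protease related to factor XII, rose by 0.58 with GC-1 (adjusted p = 0.000494) and 0.78 with T3 (adjusted p = 3.79e-05), where F12 itself did not pass. MST1, a kringle protein related to plasminogen, rose by 0.26 and 0.38, and CST3, cystatin C, by 0.22 and 0.27. FGL2, which shares the fibrinogen-like domain, rose with T3 (0.28, adjusted p = 0.0456; GC-1 0.09, adjusted p = 0.596).

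**Figure D5:**
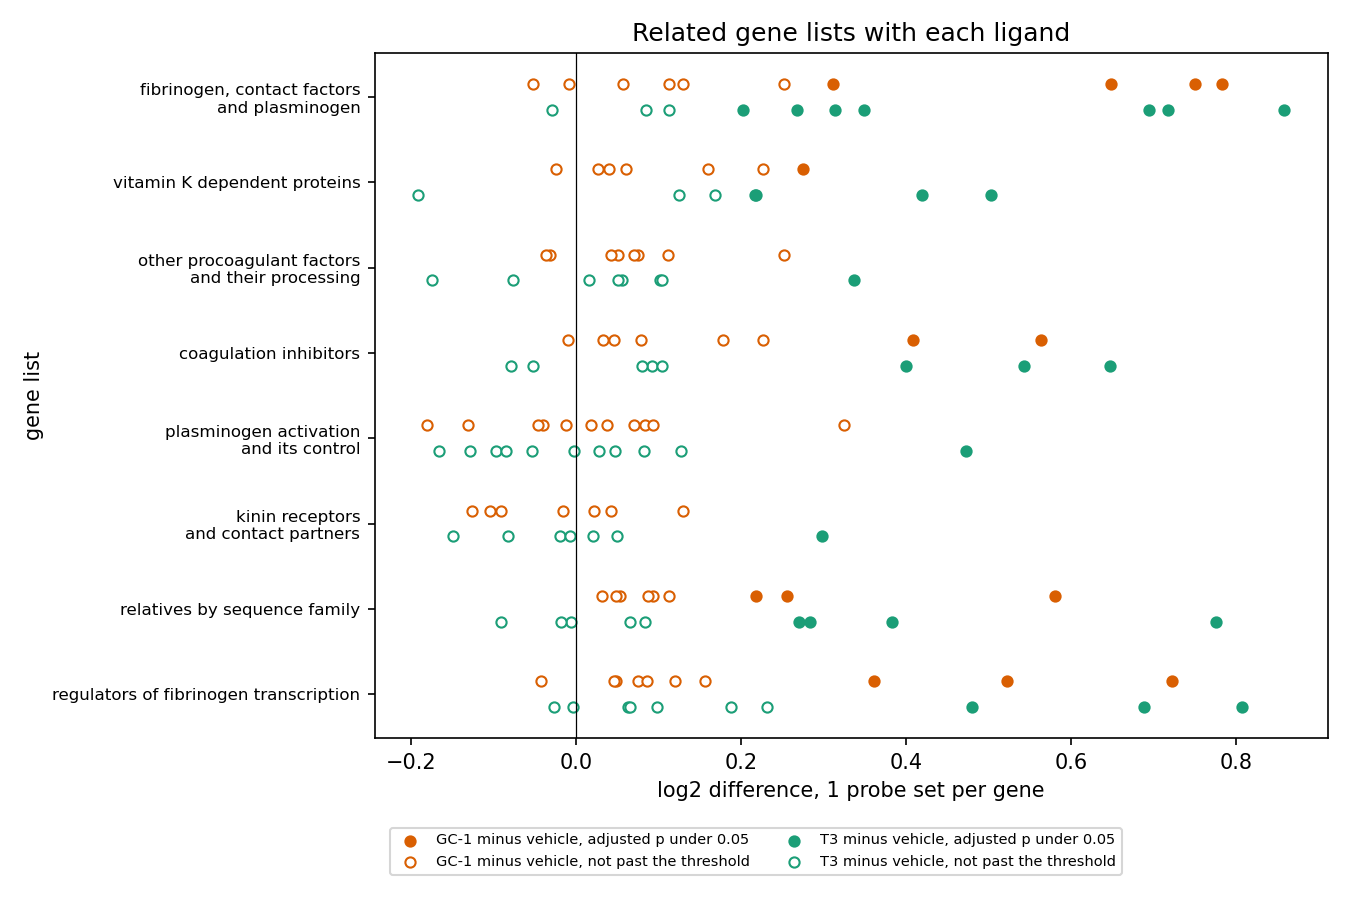
Log2 difference from vehicle with GC-1 (orange) and T3 (green) for the 10 genes and for 7 lists of related genes (rows), 1 probe set per gene; filled points passed an adjusted p under 0.05 and open points did not. Filled points lie to the right of 0 in every row that has any, and the genes of plasminogen activation and the kinin receptors and contact partners have 1 filled point each, with T3.

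The genes most like fibrinogen in their pattern were found by the root mean square difference, over the 9 arrays, between a gene's log2 difference from its vehicle mean and the mean of FGA, FGB and FGG. The fibrinogen mean stood at 0.63, 0.56 and 0.53 on GC-1 arrays, 0.65, 0.61 and 0.65 on T3 arrays, and -0.02, 0.03 and -0.0093 on vehicle arrays. The nearest 5 genes outside the 10 were LGALS8, a galectin (0.0315 log2 units), SERPIND1, heparin cofactor II (0.0343), ACSS3, an acyl-CoA synthetase (0.0362), C1orf115 (0.0381) and PTPRF, a receptor tyrosine phosphatase (0.0542). LGALS8 differed from vehicle by 0.59 with GC-1 and 0.65 with T3, and SERPIND1 by 0.56 and 0.65. FGB itself stood at 0.0610, FGA at 0.169 and FGG at 0.225 by the same measure, since the size of the change differs among the chains. They ranked 10, 79 and 145 of 11963 genes, so many genes outside the 10 lay nearer to this mean than FGA or FGG.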

How the data were processed

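Each array has 1 deposited log2 signal for every probe set. The submitters' processing notes name RMA as its source and state no version. The log base was inferred from the values (3.15 to 14.5). Scanner files and detection calls were not used here, so no probe set could be called absent, and RMA compresses changes of dim sets. Groups and replicate numbers came from the sample titles.

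Of the probe sets, 62 array controls were left out. The array annotation gave 1 symbol for 19064 of the rest, several for 1043 and none for 2108, and 19052 of the first matched RefSeq by Entrez identifier. For a gene outside the 10, the brightest probe set on average stood for the gene. Contrasts were fitted with limma 3.58.1 in R 4.3.3 (lmFit, eBayes, two-sided) over all 9 arrays, which share 1 estimate of the spread, with Benjamini-Hochberg adjustment over 22215 probe sets. The procedure was tested on simulated data, drawn independently with the spread of the vehicle arrays. Such data do not hold the differences among the T3 arrays described above. The members, lists and rules were chosen with earlier results of these data known. All members are named, up to 4 genes of a list by smallest p with T3 plus those needed for a count, neighbours and likeness by the rules given above. LPA was named besides, after its values were seen, since it shares a probe set with PLG. Alternatives were quantile normalization, a minimum mean of 6 log2 units, trend and robust moderation, array weights, 2-group fits, the replicate number as a block, the interquartile range as a covariate, and leaving out each array. A fit without T3 arrays 1 and 2 was added after seeing the data. The number of arrays limits the precision.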

Additional observations from a re-analysis of the deposited data

How the results depend on the processing

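The member counts stayed within 1.5 times of the values given in every alternative. With T3 the count of 9 was 6 to 8 when 1 array was left out, and with GC-1 the count of 6 was 6 to 7. GC-1 against T3 had 0 members called in all of them. The 5 fibrinogen probe sets passed with both ligands in every alternative, where those of F11, KNG1, PLG and, with T3, F13B did not. With the replicate number as a block, T3 had 6 members called and GC-1 had 6, and F11, KNG1 and PLG did not pass with T3 (adjusted p = 0.0744, 0.0784 and 0.0910). The deviations of same-numbered arrays correlated at -0.262 to 0.0755, and those of differently numbered arrays at -0.298 to 0.288. With 3 arrays in each group, these values cannot decide whether the numbers pair the arrays. With 2-group fits T3 also had 6 (adjusted p = 0.0734, 0.0842 and 0.0792 for the same genes), and KNG1 passed with GC-1 there (0.0317) and with array weights (0.0468). F13B and KNG1's dimmer set, with KLKB1 and the brighter KNG1 set, fell below the minimum of 6 and were not tested in that alternative. Over all probe sets, the T3 count of 1222 was 753 in the 2-group fit, 773 with the block, 1957 with trend and robust moderation and 2084 with the covariate (932 higher, 1152 lower), and 661 to 1356 without 1 array. The GC-1 count of 622 was 1061, 347 and 1347 in the first 3 of these, 1435 with array weights, 1061 without T3 arrays 1 and 2, and 274 to 1272 without 1 array. GC-1 against T3 had 22 with trend and robust moderation and 0 to 338 without 1 array, 338 being without T3 array 3. The cause of these shifts was not tested.

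Signs turned in differences that did not pass in any of these fits. After quantile normalization T3 gave -0.022 in the dimmer F5 set and 0.025 in the dimmer F12 set, GC-1 gave 0.011 in the brighter F5 set, and GC-1 minus T3 gave 0.0105 in the brighter F12 set. With the covariate, T3 gave -0.18 and 0.22 in the dimmer F5 and F12 sets, and GC-1 gave 0.017 in the brighter F5 set and -0.028 in KLKB1. GC-1 minus T3 gave 0.0069 in FGG, 0.098 in the dimmer F5 set, 0.024 and -0.12 in the brighter and dimmer F12 sets and 0.041 in the brighter KNG1 set. It gave 0.0072 in KLKB1 with array weights. Without T3 arrays 1 and 2, T3 gave -0.20 and 0.20 in the dimmer F5 and F12 sets, and GC-1 minus T3 gave 0.036 and -0.011 there and 0.046 in the brighter KNG1 set. With 1 array left out, T3 ranged from -0.057 to 0.11 in the dimmer F5 set, -0.11 to 0.081 in the dimmer F12 set and -0.0020 to 0.20 in KLKB1. GC-1 ranged from -0.019 to 0.011 in the brighter F5 set and -0.090 to 0.0058 in the brighter F12 set. GC-1 minus T3 ranged from -0.061 to 0.034 in the brighter F12 set, -0.037 to 0.16 in F13B, -0.14 to 0.059 in KLKB1, -0.12 to 0.028 in the brighter KNG1 set and -0.090 to 0.025 in the dimmer one.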
